A study of Mus musculus with 2 samples.

Results

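Tcf1 binding was examined at 10 genes that set the entry of naïve CD8+ T cells into the cell cycle, 6 drivers (Myc, Ccnd1, Ccnd2, Ccnd3, Cdk4 and Cdk6) and 4 inhibitors (Cdkn1a, Cdkn1b, Cdkn2a and Btg1). A peak was counted for a gene when its summit lay in the gene body or within 50 kb of either end, in the mm9 genome with the GENCODE vM1 annotation. The windows of the 10 genes held 57 of the 22286 deposited peaks. Of these, 48 were high-confidence Tcf1 peaks, for which the criteria were an at least 4-fold enrichment over the control with a p below 1e-05 and a q below 0.05, against 19042 high-confidence peaks in the whole list. The window of 1 gene, Cdkn2a, held none. ChIP-seq, which sequences the DNA fragments that an antibody recovers with a bound protein, was performed with an antiserum raised in rabbits against full-length Tcf1. The WT library held 46428124 fragments, of which 36938606 remained once duplicates were dropped. The Tcf1-deficient library, the control, held 36118114, of which 27625250 remained. Both libraries came from GFP+ TCRbeta+ CD62Lhi CD44lo-med CD8+ splenic T cells on the C57BL/6 background. The series' design text describes mice with hCD2-Cre, a Cre transgene acting mainly in post-thymic T cells, and the Rosa26-lsl-GFP reporter, carrying wild-type or floxed Tcf1 and Lef1. The control is labelled Tcf1-deficient in its title and Tcf1-/-Lef1-/- in its genotype, whereas the methods give Cd4-Cre+ Tcf7 fl/fl for this control, and the sources used here do not settle which alleles it lacked. The methods state an age of 6 to 12 weeks and both sexes, without tying them to these libraries. With 1 library per group there was no replicate check and no test between genotypes, and the intervals given below cover counting error only. The peak list measures binding and not RNA, so the sorted cell type was not checked against marker expression.

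Tcf1, the product of Tcf7, is a transcription factor of the HMG-box family that binds the Tcf/Lef motif and is abundant in naïve T cells. A resting T cell enters the cycle when Myc, a transcription factor that binds E-boxes with its partner Max, drives growth and when D-type cyclins activate the kinases Cdk4 and Cdk6, which phosphorylate the retinoblastoma protein and free E2F factors to start DNA synthesis. Cdkn1a and Cdkn1b encode inhibitors of cyclin-dependent kinases, Cdkn2a encodes an inhibitor of Cdk4 and Cdk6 and, in another reading frame, an activator of p53 signalling, and Btg1 encodes an anti-proliferative protein found in quiescent lymphocytes.

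The sequences below are the mm9 plus strand and are shown because they carry the strongest peaks or the motif matches on which the description turns. In the promoter of Cdk4, printed up to the base before the first annotated start site, the capitals mark 1 exact Tcf/Lef core (ATCAAAG) and 3 E-boxes (CACGTG). In the next pair, both downstream of Btg1, they mark the Tcf/Lef core on either strand. In the strongest Btg1 peak they mark a Runx core (TGTGGTT, the word of the Runx factors). In the Cdkn1b peak they mark 2 adjoining E-boxes inside a CA and CG repeat. The last pair, the strongest peak of all at Cdkn1a and the strongest Ccnd3 peak outside an annotated exon, has no capitals, since neither the Runx core nor the Tcf/Lef core or its relatives, which begin with AA, TT or TA in place of AT, lay in the 101 bases around the summit.
Cdk4 promoter (chr10:126500440-126500589): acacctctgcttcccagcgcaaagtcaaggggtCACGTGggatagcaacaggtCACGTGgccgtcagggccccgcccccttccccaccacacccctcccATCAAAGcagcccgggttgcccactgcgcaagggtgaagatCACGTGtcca
Btg1 +17.7 kb (chr10:96097235-96097335): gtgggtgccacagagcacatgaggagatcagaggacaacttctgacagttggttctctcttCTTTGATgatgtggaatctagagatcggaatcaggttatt
Btg1 +37.8 kb (chr10:96117406-96117506): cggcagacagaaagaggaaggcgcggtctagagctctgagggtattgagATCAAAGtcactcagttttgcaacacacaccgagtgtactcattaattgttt
Btg1 14.5 kb upstream (chr10:96065040-96065140): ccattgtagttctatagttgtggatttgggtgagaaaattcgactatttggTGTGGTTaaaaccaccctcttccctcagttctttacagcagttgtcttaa
Cdkn1b 1.46 kb upstream (chr6:134868906-134869006): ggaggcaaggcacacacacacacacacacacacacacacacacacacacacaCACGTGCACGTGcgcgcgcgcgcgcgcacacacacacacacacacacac
Cdkn1a 8.87 kb upstream (chr17:29219007-29219107): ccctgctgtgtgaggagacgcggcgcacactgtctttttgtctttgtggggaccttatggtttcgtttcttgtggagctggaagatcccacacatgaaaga
Ccnd3 intron +28.9 kb (chr17:47670810-47670910): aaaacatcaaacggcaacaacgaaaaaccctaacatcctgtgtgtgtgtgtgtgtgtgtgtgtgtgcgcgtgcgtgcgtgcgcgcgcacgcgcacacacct

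Tcf1 peaks were found at all 6 drivers and at 3 of the 4 inhibitors, and were strongest at Cdkn1a, Ccnd3, Cdk4 and Btg1. The highest fold enrichment, the WT pileup plus 1 over the local control level plus 1, was 45.0 in the window of Cdkn1a, 30.0 at Ccnd3, 29.9 at Cdk4, 27.1 at Btg1, 14.5 at Ccnd2, 13.4 at Cdkn1b, 9.66 at Cdk6, 6.39 at Ccnd1 and 4.83 at Myc. The pileup, which counts the WT fragments that cover a summit, was 288 at the Cdkn1a peak (Poisson 95% interval 256 to 323), and this interval overlapped that of the Ccnd3 peak (250 fragments, 220 to 283). The Ccnd3 peak had a control level of 7.35 fragments, above the floor of 5.42 that applied at the Cdkn1a, Cdk4 and Btg1 peaks, so its fold enrichment stood close to that of Cdk4 (191 fragments, 165 to 220) despite a higher pileup. The pileups at Cdk4 and Btg1 (173 fragments, 148 to 201) could not be separated from each other, nor could those of Ccnd2 (92 fragments, 74.2 to 113) and Cdkn1b (85 fragments, 67.9 to 105). Cdk6 (61 fragments, 46.7 to 78.4), Ccnd1 (40 fragments, 28.6 to 54.5) and Myc (30 fragments, 20.2 to 42.8) each overlapped the next in that order. Drivers and inhibitors were interleaved along it.

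**Figure D1:**
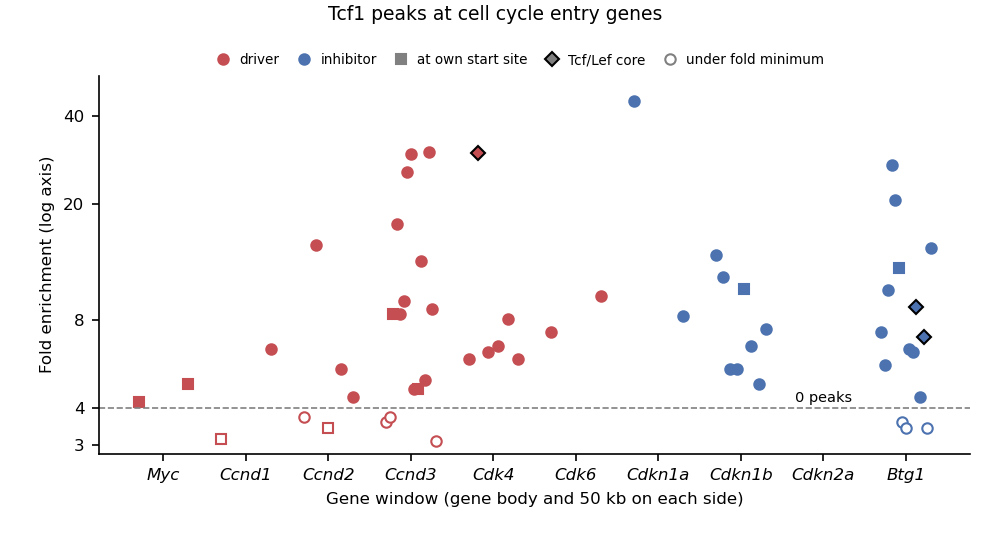
Fold enrichment (log axis) of each of the 57 deposited peaks, by gene and, within a gene, from the most upstream to the most downstream summit. Red marks drivers, blue inhibitors, squares summits within 1 kb of the gene's own start sites, diamonds summits with a Tcf/Lef core nearby (100 bp at most), and open symbols the 9 peaks under the fold minimum of 4 (dashed line). Cdkn1a has the highest peak at 45.0, both Myc peaks lie close to the dashed line, and Cdkn2a has none.

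The share of deposited peaks that passed the high-confidence criteria was 84.2% at these genes and 85.4% in the whole list. A high-confidence peak lay in the window of 9 of the 10 genes, against 66.5% of the 22350 protein-coding genes on the numbered chromosomes and X. A peak of fold enrichment 20 or more lay in the windows of 4 genes (Ccnd3, Cdk4, Cdkn1a and Btg1), against 12.2% of all protein-coding genes. The median highest fold enrichment over the genes with a peak was 14.5 here and 10.1 over all protein-coding genes. The all-gene figures include genes that are silent in T cells, and expressed genes were not singled out here. Ccnd3 and Btg1 each had 12 high-confidence peaks, a number reached by 0.904% of all protein-coding genes, and together held 24 of the 48. Their windows differ in length, 195 kb for Ccnd3 and 106 kb for Btg1, so that the density was 6.17 summits per 100 kb at Ccnd3, reached by 4.30% of all protein-coding genes, and 11.3 at Btg1, reached by 0.264%. Cdkn1b had 8, Cdk4 had 6, Ccnd2 had 3, Ccnd1 had 1, and Myc, Cdk6 and Cdkn1a had 2 each, where the median over all protein-coding genes was 1 and the upper quartile 3. Ccnd3, Btg1 and Cdk4, with 12, 12 and 6 peaks, had 3 of the 4 highest fold enrichments, and Cdkn1a, with 2 peaks, had the highest. Cdkn1b had 8 peaks, of which none exceeded 13.4.

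**Figure D2:**
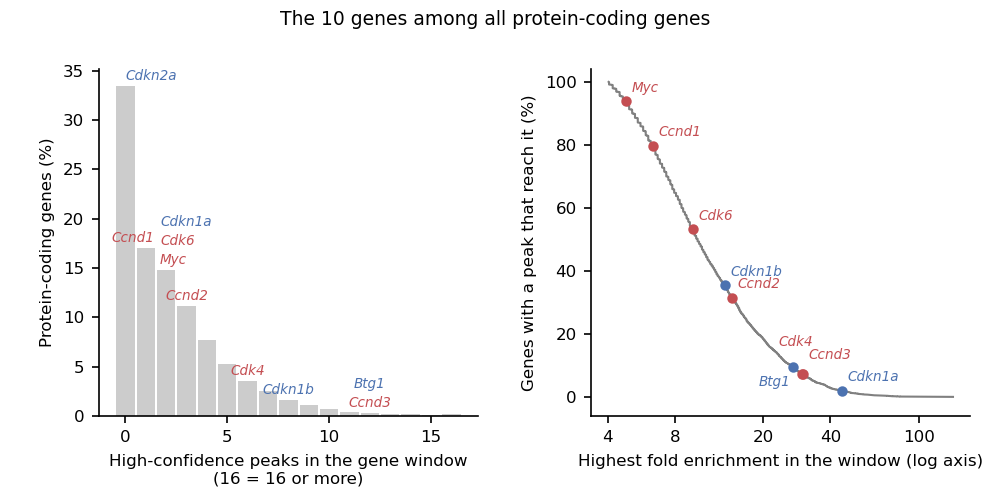
Left, the share of all 22350 protein-coding genes (bars) with a given number of high-confidence Tcf1 peaks in the gene window, with the 10 genes written above their number. Right, the share of the protein-coding genes with a peak whose highest fold enrichment reaches the value on the log axis (grey line), with the 9 genes that had a peak as points; Ccnd3 and Btg1 stand far right on the left panel, and Myc and Ccnd1 are at the weak end of the right panel.

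Myc (ENSMUSG00000022346.8, chromosome 15, 61816946 to 61821929, plus strand) had 2 broad and weak peaks and no other deposited peak in its window. The first, at 61816429 to 61817432, had a summit 427 bp upstream of the gene start, a pileup of 26 fragments and a fold enrichment of 4.21. The second, at 61818286 to 61819358, had its summit 45 bp upstream of an internal start site, with a pileup of 30 fragments and a fold enrichment of 4.83. The first was the weakest high-confidence peak of all 10 genes, and its pileup was less than 1 Poisson SD over the number needed to pass, so that counting error alone could have put it on the other side. They were 1004 and 1073 bp wide, and only 7.11% and 5.69% of all high-confidence peaks were as wide. A Runx core lay 38 bp from the second summit. A start-site peak as strong as 4.83 was found at 27.5% of all protein-coding genes. Far stronger peaks lay beyond the window, in introns of the non-coding RNA gene Pvt1 downstream of Myc, with fold enrichments of 56.7 and 36.0 at 180 and 184 kb from the Myc start. They were not counted for Myc, and whether they act on Myc was not measured.

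**Figure D3:**
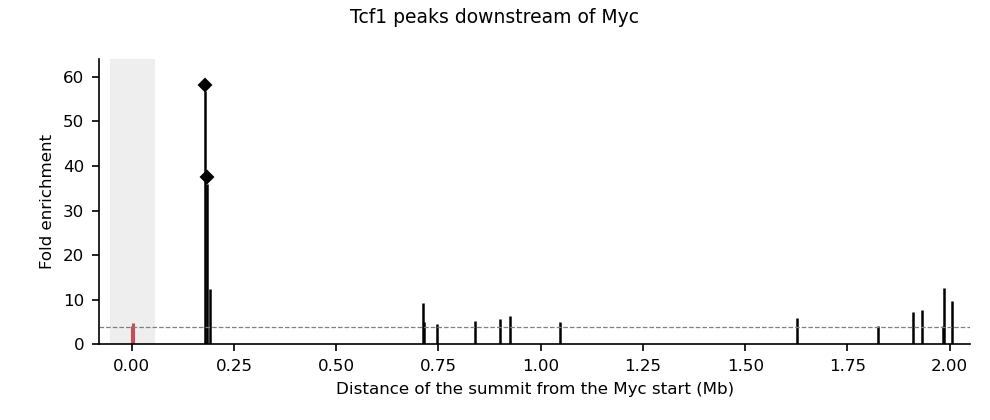
Fold enrichment of the high-confidence Tcf1 peaks at Myc (red, in the grey band that marks the gene window) and from there to 2 Mb downstream (black), by distance of the summit from the Myc start in Mb. Diamonds mark peaks with the Tcf/Lef core, and the dashed line is the fold minimum of 4. The 2 Pvt1 peaks at 56.7 and 36.0 exceed both peaks of Myc and all others in the stretch.

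The 3 D-type cyclins, which respond to mitogens and activate Cdk4 and Cdk6, differed widely. Ccnd1 (ENSMUSG00000070348.4, chromosome 7, 152115836 to 152125774, minus strand) had no high-confidence peak of its own: the only one in its window, of fold enrichment 6.39 and 40 fragments, had its summit 291 bp upstream of the start site of the neighbouring gene Oraov1. A peak near the internal start site of Ccnd1 had 21 fragments against a control level of 6.02 and, at 3.14, fell under the fold minimum. Ccnd2 (ENSMUSG00000000184.9, chromosome 6, 127075797 to 127101066, minus strand) had its strongest peak 1.55 kb upstream of the start, at 127101833 to 127103343, in an intron of 9330179D12Rik, with 92 fragments and a fold enrichment of 14.5. This peak was 1511 bp wide, which 1.42% of all high-confidence peaks matched. The peak 200 bp from the Ccnd2 start had a fold enrichment of only 3.42, and the other 2 high-confidence peaks of the window were weak, at 5.45 in an intron of Ccnd2 and at 4.36 near the start site of 9630033F20Rik.

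Ccnd3 (ENSMUSG00000034165.8, chromosome 17, 47642000 to 47736632, plus strand) carried Tcf1 peaks in its first 37.4 kb and again from +88.4 kb to just past its end, with no deposited peak in the 51.0 kb between. Of its 12 high-confidence peaks, 9 lay in the gene body, and 3 had a fold enrichment of 20 or more. The strongest, at 47737661 to 47738380, lay 1.39 kb past the end of Ccnd3 in an annotated exon of the neighbouring gene Bysl, with a fold enrichment of 30.0. The next, at +28.9 kb in an intron of Ccnd3, had 190 fragments and a fold enrichment of 29.8, and its printed sequence contains a run of 28 bases of alternating T and G at the summit. A peak 2.27 kb before it, at +26.6 kb, had 164 fragments and a fold enrichment of 25.7. Another intron peak, at +3.10 kb, reached 17.1 with 119 fragments and had a Runx core 9 bp from its summit. The first start site itself was marked by a peak of fold enrichment 8.41 with 53 fragments, and the internal start site, at +88.4 kb, by a weak one of 4.67 with 29 fragments. The last of the 12, of fold enrichment 8.73 with 55 fragments, lay beyond the gene end, 35 bp from the start site of Med20. The strong signal at Ccnd3 was thus away from its start sites. No high-confidence peak at the 3 D cyclins had the exact Tcf/Lef core in the 100 bp around its summit (0 of 16, binomial 95% interval 0 to 20.6%). This interval included the 10.2% of the whole list. The Ccnd2 peak of fold enrichment 4.36 held the core within its peak interval, 179 bp from the summit. The core or a relative was found in 3 of the 16 (18.8%), against 28.3% of the whole list. Among these, the strongest Ccnd3 peak held the relative AACAAAG 13 bp before its summit and the relative TTCAAAG 17 bp after it.

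**Figure D4:**
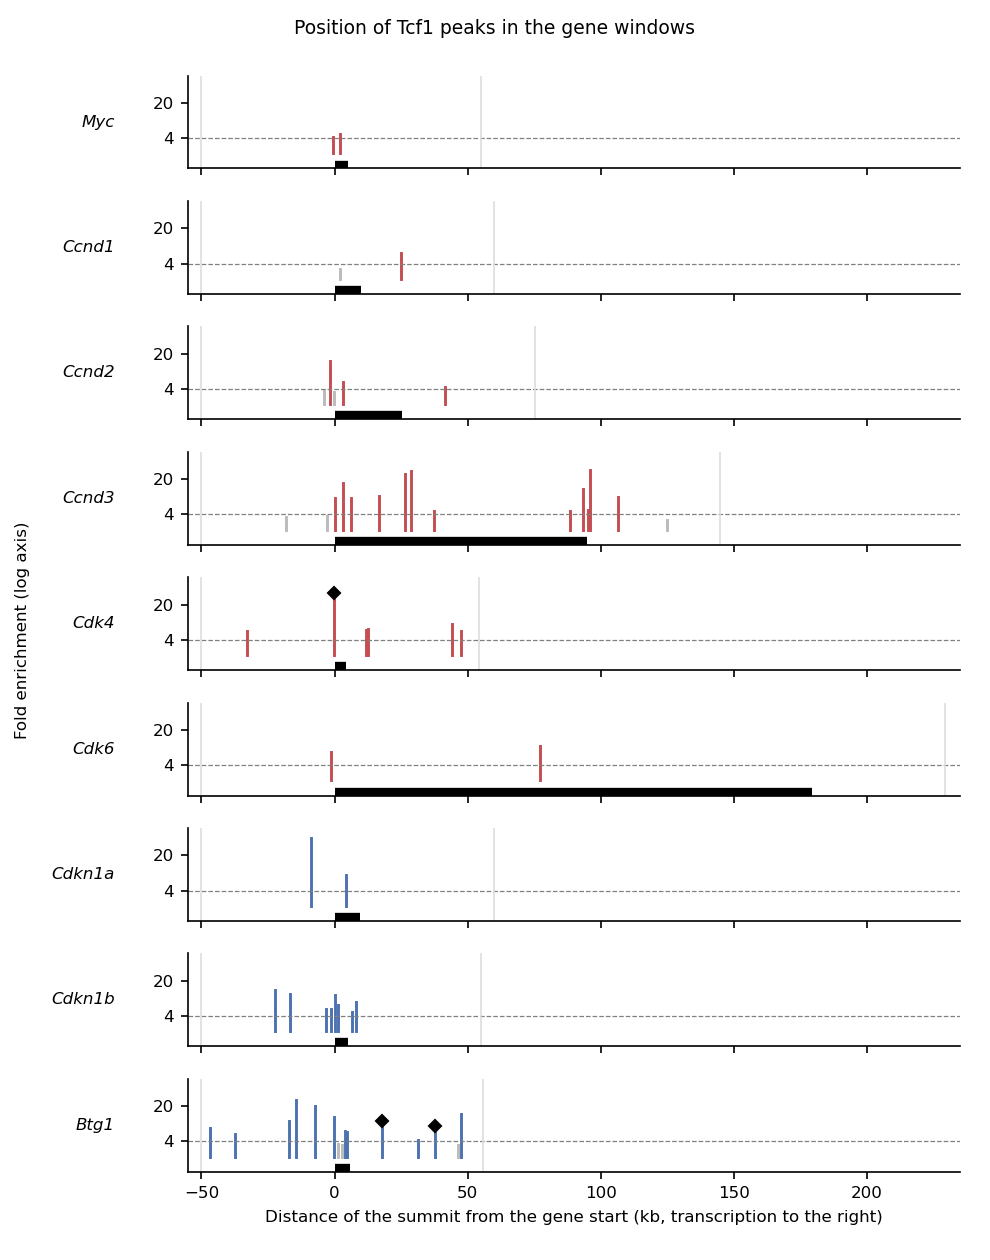
Position of the deposited Tcf1 peaks in the windows of the 9 genes that had one, as the distance of the summit from the gene start in kb with transcription to the right, and height as fold enrichment on a log axis. Black bars are gene bodies, grey vertical lines the window ends, red lines drivers, blue lines inhibitors, light grey lines peaks under the fold minimum, and diamonds peaks with the Tcf/Lef core. Peaks lie in the first and the last stretch of Ccnd3 with an empty 51.0 kb between, gather at the start of Cdkn1b and flank Btg1 on both sides, while Cdk4 has 1 dominant peak at its start.

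Of the 2 kinases that pair with D cyclins, Cdk4 had the strongest start-site peak of the 10 genes. Cdk4 (ENSMUSG00000006728.6, chromosome 10, 126500590 to 126504976, plus strand) had a peak at 126500156 to 126501034, with 191 fragments, a fold enrichment of 29.9 and a summit 45 bp upstream of the first start site. A start-site peak as strong was found at 0.353% of all protein-coding genes. In the printed promoter the Tcf/Lef core, at 126500539 to 126500545, was centred 3 bp from the summit, and the E-boxes were centred 8, 95 and 115 bp before the first base of the gene. Of all high-confidence promoter peaks, 5.13% held the core and 8.51% an E-box. In the list, 7 peaks held 3 or more E-boxes within 100 bp of the summit, and the Cdk4 peak was the only 1 of them that also held the core, a combination looked for after the sequence had been seen. The other 5 peaks of the Cdk4 window, with fold enrichments from 5.92 to 8.10, were nearest to the start sites of Tsfm, Agap2 and Os9, in a window shared by 10 protein-coding genes. Cdk6 (ENSMUSG00000040274.5, chromosome 5, 3343893 to 3523218, plus strand) had only 2 peaks in a window of 279 kb. One lay in an intron at +77.1 kb, at 3420788 to 3421240, with 61 fragments and a fold enrichment of 9.66, and the other 1.48 kb upstream of the start, with 46 fragments and 7.32. The first held the relative AACAAAG 5 bp from its summit and the second the relative TACAAAG 25 bp from its own, and neither held the exact core as close as 100 bp. In the first, the exact core lay 176 bp from the summit within the peak interval.

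The 3 genes for inhibitors of cyclin-dependent kinases had 3 different patterns. Cdkn1a (ENSMUSG00000023067.7, chromosome 17, 29227924 to 29237667, plus strand) had the strongest peak of all 10 genes, at 29218659 to 29219403 in intergenic sequence 8.87 kb upstream of the start, with 288 fragments and a fold enrichment of 45.0. Only 0.872% of all high-confidence peaks were as strong, and 1.30% of all protein-coding genes had as strong a peak in their window. The exact core was absent from the 100 bp on each side of its summit and lay 126 bp away within the peak interval. The second Cdkn1a peak, in an intron 1.59 kb past an internal start site, had 52 fragments and a fold enrichment of 8.26, and no peak was listed within 1 kb of the start sites of Cdkn1a.

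Cdkn1b (ENSMUSG00000003031.8, chromosome 6, 134870419 to 134875531, plus strand) had 8 peaks of moderate strength, all high-confidence. The strongest, at 134847675 to 134848478 with 85 fragments and a fold enrichment of 13.4, was 78 bp upstream of the start site of Gpr19, and the next, of 11.2, was also nearest to Gpr19. The other 6 spanned the gene from 3.16 kb upstream of the start to 2.97 kb past the end. Among them, the peak at the start of Cdkn1b, with its summit 6 bp upstream, had 71 fragments over a control level of 6.02, or a 10.3-fold enrichment, a strength that 6.89% of all protein-coding genes reached at a start site. The remaining 5 ranged from 4.83 to 7.48. Cdkn2a (ENSMUSG00000044303.5, chromosome 4, 88920377 to 88940557, minus strand) had no deposited peak in a window of 120 kb that also contains Cdkn2b, a second inhibitor of Cdk4 and Cdk6. The list holds only peaks with a pileup of 18 fragments or more, and at the control floor a high-confidence peak needed 25, so weaker binding there would not be listed.

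Btg1 (ENSMUSG00000036478.7, chromosome 10, 96079635 to 96085447, plus strand) had the densest set of peaks of the 10 genes. It was the only protein-coding gene in its window and had the nearest start site for all 12 peaks. The strongest, at 96064759 to 96065475, lay 14.5 kb upstream with 173 fragments and a fold enrichment of 27.1, and a Runx core was centred 4 bp from its summit. A second upstream peak, 7.49 kb before the start, had 132 fragments and a fold enrichment of 20.7, with a Runx core 21 bp from its summit. These were the 2 of the 12 Btg1 peaks with a Runx core, which 15.5% of all high-confidence peaks held. The 20.7-fold peak also held the relative AACAAAG 40 bp from its summit and the exact Tcf/Lef core 475 bp away within its interval. The peak at the Btg1 start, 144 bp upstream, had 116 fragments and a fold enrichment of 12.1, with the highest control level of the 48 peaks, 8.69 fragments. It was 1484 bp wide, as were 1.55% of all high-confidence peaks. Downstream, the 2 peaks with the Tcf/Lef core were of middling strength, 8.88 with 56 fragments at +17.7 kb and 7.01 with 44 fragments at +37.8 kb, and their cores were centred 14 and 2 bp from the summit. The farthest downstream peak, at +47.3 kb, reached 14.2 with 90 fragments.

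Drivers and inhibitors were then set side by side. Drivers held 26 high-confidence peaks and inhibitors 22, in windows that summed to 919 and 441 kb. This gave 2.83 summits per 100 kb for drivers (Poisson 95% interval 1.85 to 4.15) and 4.99 for inhibitors (3.13 to 7.56), where the median protein-coding gene had 0.973. The ratio of inhibitors over drivers was 1.76 with an interval of 0.952 to 3.24 that includes 1. The contrast rested on single genes: without Btg1 the ratio was 1.05 (0.454 to 2.26), without Ccnd3 it was 2.58 (1.26 to 5.45), and without both it was 1.54 (0.613 to 3.74). When a peak was counted only where the member's own start site was the nearest of a protein-coding gene, which 17 of the 26 driver peaks and 20 of the 22 inhibitor peaks met, the ratio was 2.45 (1.22 to 4.98). Neither peaks nor genes are replicates, so these intervals describe counting error in 1 peak list. The peaks of both groups were of like strength, with a median fold enrichment of 7.71 at drivers and 7.87 at inhibitors, against 6.86 in the whole list. A fold enrichment of 8 was reached by 13 of the 26 driver peaks and 11 of the 22 inhibitor peaks, against 39.6% of the whole list.

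The placement of the peaks was compared in the same way. Of the driver peaks, 9 were at promoters, within 1 kb of a start site of any transcript, 12 in introns and 3 (11.5%, exact binomial 95% interval 2.45 to 30.2%) in intergenic sequence. Of the inhibitor peaks, 3 were at promoters, 2 in introns and 15 (68.2%, 45.1 to 86.1%) in intergenic sequence. In the whole list, 30.6% of the peaks were in introns and 27.4% in intergenic sequence. The intergenic share of the whole list lay inside the interval of the drivers and below that of the inhibitors. Of the 12 intron peaks of drivers, 3 lay in introns of other genes, 2 in Os9 and 1, the strongest Ccnd2 peak, in 9330179D12Rik. Without Ccnd3 the intergenic share of driver peaks was 21.4% (4.66 to 50.8%) and without Btg1 that of inhibitor peaks was 60% (26.2 to 87.8%), so the direction was kept with either or both left out. On these smaller counts, 14 driver and 10 inhibitor peaks, the intervals of the groups overlapped, and both included the share of the whole list. The windows differed in the same direction, since 33.2% of the driver windows and 61.8% of the inhibitor windows lay outside any annotated gene. The gene bodies of the members made up 34.7% of the driver windows and 9.27% of the inhibitor windows, and they held 12 and 4 peaks. The part of gene length in the difference was not tested. Over both groups 12 peaks (25%, 13.6 to 39.6%) were at promoters, against 39.6% of the whole list. A peak within 1 kb of an own start site was found at 5 genes (Myc, Ccnd3, Cdk4, Cdkn1b and Btg1), against 32.8% of all protein-coding genes.

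The exact Tcf/Lef core was found on either strand, at most 100 bp from the summit, in 3 of the 48 peaks (6.25%, 1.31 to 17.2%), the Cdk4 promoter peak and the 2 downstream Btg1 peaks, against 10.2% of all high-confidence peaks and 3.31% of windows 2 kb to each side of them. The core or a relative was found in 12 (25%), against 28.3% of all high-confidence peaks. The Runx core TGTGGTT was found in 6 (12.5%, against 15.5%), the ETS core CGGAAGT in 3 (6.25%, against 6.93%) and the E-box CACGTG in 3 (6.25%, against 6.39%), of which 2 were at Cdkn1b. The intervals of all these shares included the share of the whole list. A match to these letters is a description of the sequence and not a measured site.

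Other genes of the same step were described from lists of 17 further drivers and 23 further brakes, which include the retinoblastoma family, other cyclin-dependent kinase inhibitors, the Btg and Tob proteins, Myc antagonists and the quiescence factors Klf2, Foxo1 and Foxp1. Of the 17 drivers, 16 had a high-confidence peak in the window, 12 at an own start site and 4 a peak of fold enrichment 20 or more. Of the 23 brakes, 21 had a peak in the window, 19 at an own start site and 5 one of fold enrichment 20 or more. Over all protein-coding genes these shares were 66.5%, 32.8% and 12.2%, against 94.1%, 70.6% and 23.5% of the drivers and 91.3%, 82.6% and 21.7% of the brakes. The median number of peaks was 3 for the drivers and 4 for the brakes, where the median over all protein-coding genes was 1. The median highest fold enrichment was 10.1 for the drivers, the same as over all protein-coding genes with a peak, and 14.2 for the brakes. The highest values were 82.4 in the window of Rbl1, which encodes a retinoblastoma relative, and 75.9 in that of Cdk2, the kinase that acts after Cdk4 and Cdk6, although no high-confidence peak lay at the start site of Cdk2. The largest count was 12, at the replication factor Cdc6 and at 3 of the brakes, among them Klf2. Mcm5 among the drivers, and Cdkn1c and Cdkn2b among the brakes, had none.

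**Figure D5:**
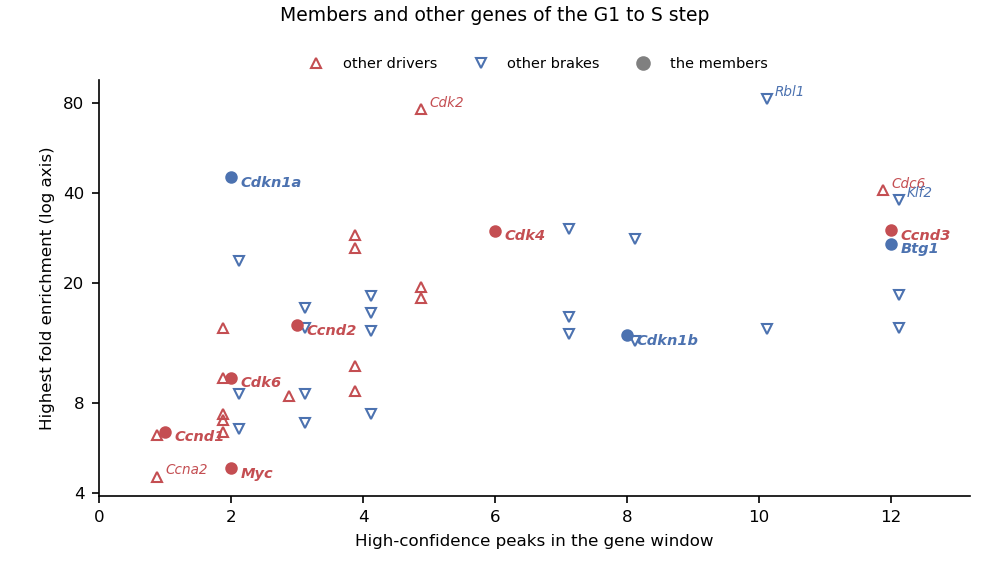
Highest fold enrichment in the gene window (log axis) against the number of high-confidence Tcf1 peaks there. Filled circles are the members (red drivers, blue inhibitors), open red triangles the other drivers and open blue triangles the other brakes, offset sideways so that they can be seen, and the genes without a peak are left out. Ccnd3 and Btg1 sit with Cdc6 and Klf2 at 12 peaks, Cdkn1a stands high with 2 peaks, and Myc lies at the bottom left.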

How the data were processed

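Tcf1 ChIP-seq was measured in 1 WT and 1 Tcf1-deficient library of naïve CD8+ T cells. The authors aligned reads to mm9 with Bowtie2 2.2.5 and called peaks with MACS2 2.1.1, using the Tcf1-deficient library as control and keeping 1 fragment per position. The deposited pileup is an unscaled signal, the WT coverage at the summit. The deposited fold enrichment is a ratio with a pseudocount of 1, and the deposited −log10 p and −log10 q come from a Poisson model of the pileup against the control level. That p compares 2 libraries, not genotypes. The control level was computed back from pileup and fold enrichment and was never under a floor of 5.42 fragments. No value column was left unused.

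High-confidence peaks followed the study's criteria (fold enrichment of at least 4, p under 1e-05, q under 0.05). Positions and sequence came from NCBIM37, which is mm9, and GENCODE vM1. Promoters were the 1 kb around any start site, motifs were searched on both strands within 100 bp of the summit, and intervals were exact Poisson or exact binomial (scipy 1.17.1), with the exact conditional interval for a ratio of counts. Sequences were read with pysam 0.24.0, and the scripts were tested on simulated data. All 10 genes were named, each with its strongest peak, every peak at its own start sites and every peak with the Tcf/Lef core. The members and the wider lists were chosen with earlier results of these data known. Alternatives changed the window, the fold and q limits, the promoter width and the motif search, and left out Ccnd3 or Btg1.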

Additional observations from a re-analysis of the deposited data

Results flagged for a closer look

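In the windows of the 10 genes, 9 deposited peaks fell under the fold minimum and entered no count, 6 at drivers and 3 at inhibitors. They include a peak of fold enrichment 3.14 near the internal start site of Ccnd1 and one of 3.42 at the start of Ccnd2, so that start-site signal at both genes was listed but weak. Both had a control level of 6.02 fragments, above the floor, and the Ccnd2 peak, but not the Ccnd1 peak, lay within 1 Poisson SD of the minimum. On either side of the minimum the nearest peaks were 3.74 (Ccnd2 and Ccnd3) under it and 4.21 (Myc) and 4.36 (Ccnd2 and Btg1) over it. Outside the windows, 2 peaks in Pvt1, of fold enrichment 56.7 and 36.0, exceeded both peaks of Myc itself, and they are described under the other observations.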

How the results depend on the processing

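Of 49 alternative values, 38 stayed within 1.5 times a count or within the interval of a share, ratio or median, and 11 moved. A turn of direction was looked for only in the ratio, and none could be called because its main interval included 1. The order of the median fold enrichments did turn. Drivers stood above inhibitors with a 10 kb window (8.41 against 7.01) and with own nearest start sites (8.41 against 7.4). They also did with a fold minimum of 8, and stood below with no fold minimum (6.31 against 7.32). A fold minimum of 8 left 24 peaks at the 10 genes, 13 at drivers and 11 at inhibitors, and raised the median fold enrichment by construction, to 12.8 at drivers, 12.1 at inhibitors and 12.3 in the whole list. A window of 10 kb left 12 inhibitor peaks and one of 100 kb gave 38. Counting only peaks whose nearest protein-coding start site was the member's own left 17 driver peaks. Added after the data had been seen, leaving out Ccnd3 left 14 driver peaks and leaving out Btg1 left 10 inhibitor peaks. The ratio of inhibitors over drivers ranged from 1.05 without Btg1 to 2.58 without Ccnd3, stayed above 1 in each alternative, and its interval excluded 1 with a 100 kb window (2.02, 1.24 to 3.31), with own nearest start sites, with q under 1e-10 (1.99, 1.04 to 3.79) and without Ccnd3. Searching the whole peak interval for the Tcf/Lef core raised its share to 20.8% (10.5 to 35%), against 15.1% of the whole list. The member peaks were wider, with a median of 570.5 bp against 484 bp, so that this search covered more sequence in them. Allowing the relatives within 100 bp instead raised the share to 25%, against 28.3% of the whole list. No paired analysis was possible because there was 1 library per group and the result comes from no test. Depth limits the weak peaks: 5 of the 48 passed the fold minimum by 1 Poisson SD or less, and binding under a pileup of 18 was not listed.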

Other observations

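Downstream of Myc, beyond the 50 kb window, 2 Tcf1 peaks were much stronger than those at the gene itself, while the median of the stretch was a fold enrichment of 6.39. From the end of Myc to 2 Mb downstream the list held 17 peaks, all high-confidence, or 0.85 summits per 100 kb (Poisson 95% interval 0.495 to 1.36), against 0.721 over the genome. None lay within 50 kb of the gene end. The 2 strongest lay in introns of Pvt1, a non-coding RNA gene next to Myc, and both held the exact Tcf/Lef core, on the minus strand. The peak at 61996126 to 61996914 of chromosome 15, 180 kb from the Myc start, had 363 WT fragments (327 to 402) and a fold enrichment of 56.7, a strength that 0.341% of all high-confidence peaks reached. The peak at 62000696 to 62001764, 184 kb from the Myc start, had 348 fragments (312 to 387), a control level of 8.69 and an enrichment of 36.0-fold. Another Pvt1 peak, at 193 kb, had a Runx core and a fold enrichment of 12.3, and the other 14 ranged from 4.05 to 12.6. The nearest protein-coding start site of the Pvt1 peaks was that of Myc. Whether any of these sites acts on Myc was not measured. The plus strand around the summits of the first pair, with the core in capitals, was as follows.
Pvt1 180 kb from Myc (chr15:61996450-61996570): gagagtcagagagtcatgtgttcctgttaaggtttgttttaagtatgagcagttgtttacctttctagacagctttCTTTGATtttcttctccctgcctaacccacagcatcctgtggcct
Pvt1 184 kb from Myc (chr15:62001300-62001420): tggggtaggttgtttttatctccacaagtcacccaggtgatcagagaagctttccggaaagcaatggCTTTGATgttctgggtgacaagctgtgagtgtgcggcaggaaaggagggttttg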
